A study of Mus musculus with 2 samples.

Results

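Small leucine-rich proteoglycans are secreted proteins of the extracellular matrix, and the levels of 10 of their genes were compared between C2C12 cells with a hairpin against Lrrfip1 and control cells. The genes were Dcn, Bgn, Aspn, Omd, Lum, Fmod, Prelp, Ogn, Podn and Ecm2, out of 18193 genes on the array. They were chosen by family, with the large differences of Dcn and Omd in these arrays already known, so all values below are descriptions. Every probe set, the group of short probes that reads 1 transcript region, whose single gene symbol in the platform annotation was one of the 10 was taken. This gave 22 of 45101 probe sets, and no probe set with several symbols held one of these genes.

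C2C12 is an established mouse myoblast line that fuses into myotubes when serum is lowered. The shLrrfip1a cells carried a short hairpin against Lrrfip1, and the control cells carried a control hairpin spelled shLCUI in the sample labels and shLUCI in the series text. Both grew in 10% fetal bovine serum, followed by 5 days of differentiation with 2% horse serum. Each group was 1 array of total RNA, so no replicate spread, standard error or p-value can be given, and a difference was counted by its size alone. The labels give no vector, clone or second hairpin, so what differs between the hairpins and what differs between these cultures cannot be told apart.

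These proteins share a core of leucine-rich repeats that binds collagen fibrils and sets their spacing and width. Many carry chondroitin, dermatan or keratan sulfate chains, and several bind growth factors such as TGF-beta or act on cell surface receptors. In skeletal muscle they lie in the connective tissue sheaths, and decorin has been described as a regulator of TGF-beta and myostatin in myoblasts.

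The intensities of Lrrfip1 were 375, 108 and 292 in shLrrfip1a cells, against 531, 160 and 469 in control cells, on its 3 probe sets. These were 70.6%, 67.4% and 62.2% of the control values. Skeletal muscle was read by 12 marker genes, of which 11 lay above the level filter. None of these 11 differed by 2-fold, where 1.35% of all genes above the filter did in either direction. Of the 11, 5 were higher, where 50.7% of such genes were, and 6 lower, from -0.41 (Actc1) to 0.38 (Ckm) on the log2 scale. The summed intensity of the 12 was 17603 in shLrrfip1a and 18793 in control cells. The filter kept genes whose mean log2(intensity + 16) exceeded the probe set median, which corresponds to an intensity of 52.4. The bacterial and phage spike-in controls were lower in shLrrfip1a on 38 of 42 probe sets, with a median log2 difference of -0.16. Scaling to them would raise every log2 difference given here by 0.16. As a sign of RNA quality, the 3-prime actin control exceeded its 5-prime partner by 0.52 (log2) in shLrrfip1a and 0.74 in control cells, and for Gapdh the value was -0.04 in shLrrfip1a and 0.00 in control cells.

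Of the 10 genes, 9 were higher and 1 was lower in the shLrrfip1a array by any amount, where 53.4% of all genes on the array were higher. Above the filter were 8 of the 10, 7 of them higher where 50.7% of such genes were, and each of these 8 also lay above the array's median on both arrays. Dcn and Omd were at least 2-fold higher, against a background of 0.664% of 11448 genes, and none of the 8 was at least 2-fold lower, against a background of 0.69%. Both directions together came to 76 higher and 79 lower genes on the deposited scale and to 116 higher and 53 lower genes after spike-in scaling. Since Dcn and Omd led to the choice of this family, nothing is read from these shares. The median log2 difference, shLrrfip1a minus control, of the 8 genes was 0.61, and it was 0.42 over the 6 left without Dcn and Omd. The median of all genes above the filter was 0.00, and 95% of them lay between -0.58 and 0.57.

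**Figure D1:**
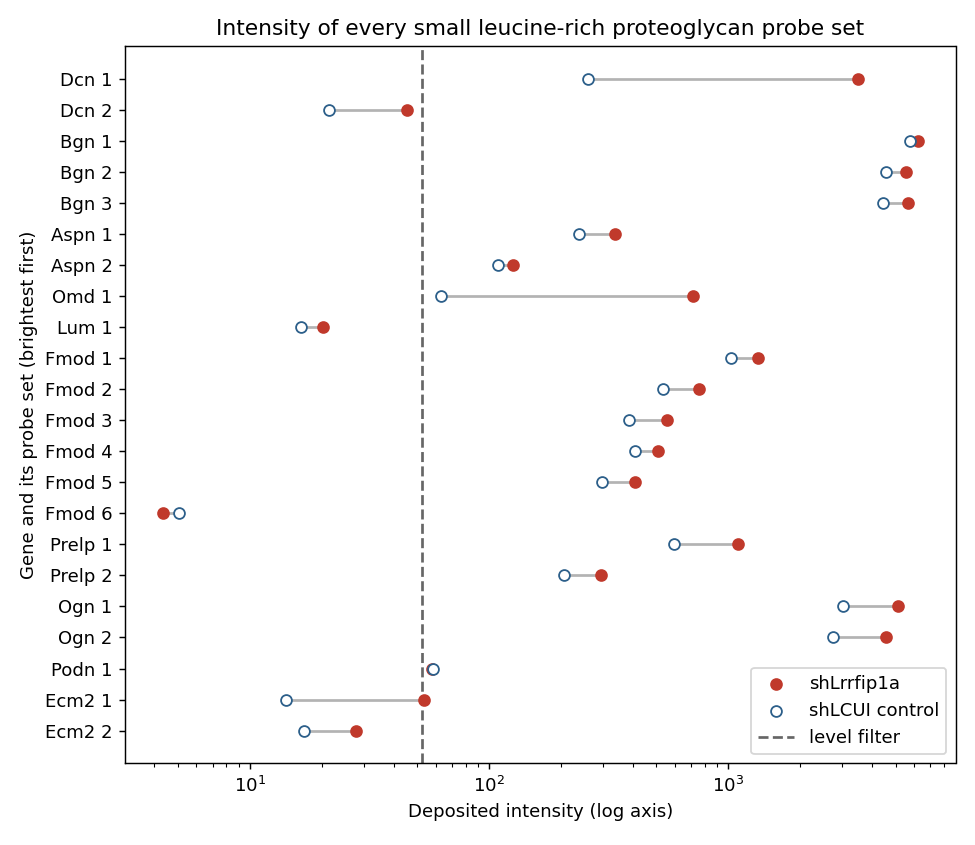
Deposited intensity (x axis, log scale) of all 22 probe sets of the 10 genes, 1 row each, with the brightest of each gene first. Filled points are the shLrrfip1a array, open points the shLCUI control array, and the dashed line is the level filter at an intensity of 52.4; only Dcn and Omd have points far apart above it.

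The first class of the family includes Dcn, Bgn and Aspn, whose proteins bind collagen, and of which decorin and biglycan usually carry chondroitin or dermatan sulfate. Dcn had an intensity of 3497 in shLrrfip1a cells, against 260.4 in control cells, a ratio of 13.4. Its log2(intensity + 16) difference was 3.67, and no other gene above the filter had a larger one. The second Dcn probe set was dim on both arrays, below the filter, with 45.6 in shLrrfip1a and 21.5 in control cells. It differed in the same direction by 0.72, so the size of the Dcn difference rests on 1 probe set.

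Bgn, which encodes biglycan, was bright on both arrays and nearly level. Its 3 probe sets read 6193, 5513 and 5623 in shLrrfip1a cells, against 5751, 4550.3 and 4444 in control cells. The log2 differences were 0.11, 0.28 and 0.34, all positive, and 32.8% of genes above the filter had a larger difference than its brightest probe set. Aspn encodes asporin, a relative with a run of aspartate residues and no sulfated chain, which is known to bind collagen and TGF-beta. It read 337 and 126 in shLrrfip1a cells, against 237.5 and 109 in control cells, on its 2 probe sets. The log2 differences were 0.48 and 0.18, under 1.5-fold on both.

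The second class holds Lum, Fmod, Prelp and Omd. Lumican and fibromodulin are keratan sulfate proteoglycans that bind collagen fibrils, PRELP is a basic protein that also binds heparan sulfate, and osteomodulin, the product of Omd, is an acidic protein of bone and dentin. Omd had an intensity of 710.0 in shLrrfip1a cells, against 63.3 in control cells, a ratio of 11.2. The control value was close to the filter level of 52.4. Its log2 difference of 3.19 came from its single probe set, and 1 gene above the filter, Dcn, had a larger one.

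Prelp read 1102 in shLrrfip1a cells, against 595 in control cells, on its brighter probe set, a log2 difference of 0.87. Its other probe set read 294 in shLrrfip1a and 207 in control cells, a smaller difference of 0.47. Of the genes above the filter, 0.935% had a larger difference than the brighter Prelp probe set. Prelp therefore lay under 2-fold on the deposited scale, and with spike-in scaling its difference was 1.03.

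Fmod had 6 probe sets, of which 5 lay above the filter. These 5 read 1334, 755, 553, 507 and 409 in shLrrfip1a cells, against 1029, 534, 386, 407 and 296 in control cells. All 5 were higher in shLrrfip1a, by 0.37, 0.49, 0.50, 0.30 and 0.45 on the log2 scale, so each was under 1.5-fold. The sixth was dim on both arrays with 4.35 in shLrrfip1a and 5.07 in control cells. Of the 6, 5 are of the kind marked x by the manufacturer, whose probes can also bind other transcripts. Lum was dim on both arrays, at 20.35 in shLrrfip1a and 16.5 in control cells, and no difference can be read from it.

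Ogn represents the third class and encodes osteoglycin, also called mimecan, a matrix protein of bone, muscle and vessel walls. Its 2 probe sets read 5097 and 4542 in shLrrfip1a cells, against 3026 and 2737 in control cells. The log2 differences were 0.75 and 0.73, close to each other and under 2-fold. Of the genes above the filter, 1.31% had a larger difference. At 1.5-fold, 4 of the 8 genes above the filter were higher (Dcn, Omd, Prelp and Ogn), against 2.34% of all genes above it. None was lower, against 2.46%. As Dcn and Omd led to the choice of this family, nothing is read from these shares either.

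Podn and Ecm2 are described last. Podn encodes podocan, a leucine-rich repeat protein that binds collagen. It read 57.9 in shLrrfip1a and 58.4 in control cells, a log2 difference of -0.01 that became 0.15 with spike-in scaling, so it had no stable direction. Ecm2 encodes a matrix protein with leucine-rich repeats similar to those of decorin. Its 2 probe sets read 53.5 and 27.8 in shLrrfip1a cells, against 14.2 and 16.9 in control cells. Both were higher, by 1.20 and 0.41 on the log2 scale, but both means lay below the filter, so Ecm2 was not counted among the 2-fold genes.

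**Figure D2:**
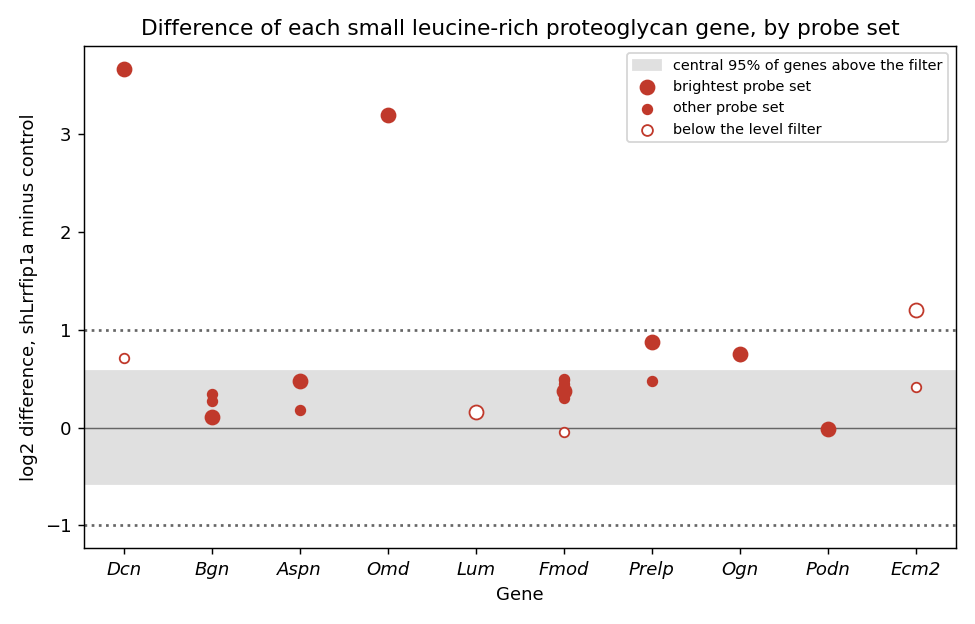
Log2 difference, shLrrfip1a minus control, of each probe set (y axis) for the 10 genes (x axis). Large points are the brightest probe set of a gene, open points lie below the level filter, the grey band holds the central 95% of genes above the filter (-0.58 to 0.57), and dotted lines mark 2-fold; Dcn at 3.67 and Omd at 3.19 stand far above the band.

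Of all 22 probe sets 20 were higher in shLrrfip1a, where 53% of probe sets with 1 gene symbol were. Among them, 16 of the 17 above the filter were higher in shLrrfip1a and 1, that of Podn, was lower, where 50.8% of all probe sets above the filter with 1 gene symbol were higher. The 5 genes with several probe sets above the filter (Bgn, Aspn, Fmod, Prelp and Ogn) were higher on all of them. The share of all genes with several probe sets above the filter that were higher on all of them was not computed. Several probe sets of 1 gene share their RNA and are not replicates, so nothing is read from this count. All these probe sets of Bgn, Aspn and Fmod lay inside the central 95% of all genes above the filter. Both of Ogn lay outside it, and of Prelp the brighter lay outside (0.87) and the other inside (0.47).

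**Figure D3:**
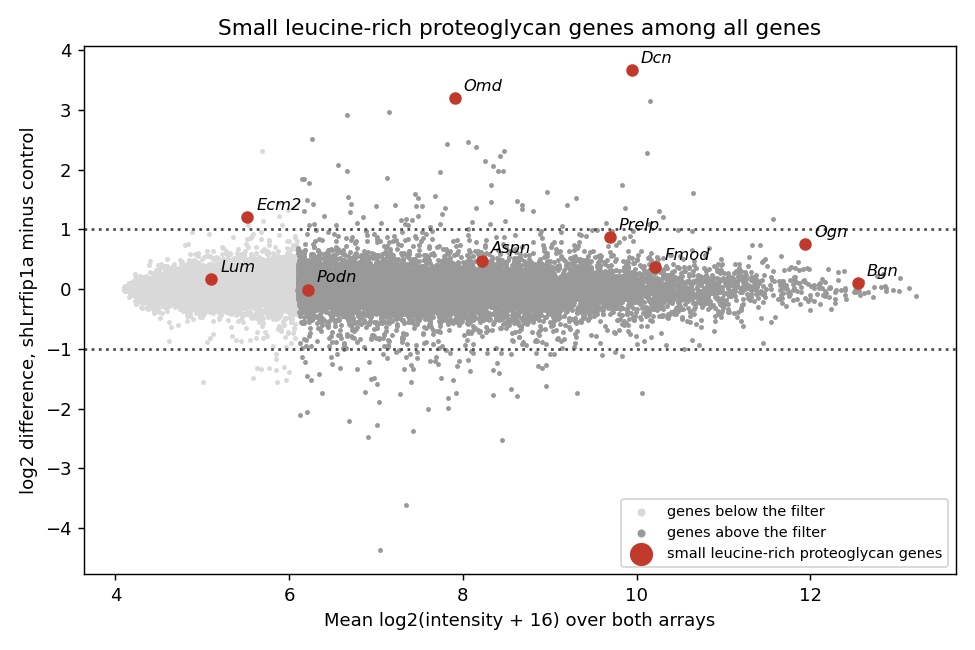
Log2 difference, shLrrfip1a minus control (y axis), against the mean log2(intensity + 16) over both arrays (x axis) for 18193 genes, each by its brightest probe set. The 10 small leucine-rich proteoglycan genes are labelled, dotted lines mark 2-fold, and Dcn has the highest difference of all genes.

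The genes with the difference nearest to that of Dcn were Omd and Car3, a carbonic anhydrase (3372 in shLrrfip1a and 367.9 in control cells, log2 difference 3.14). Those nearest to Omd were Car3 and Klhl13, an adaptor of a ubiquitin ligase (380 in shLrrfip1a and 34.7 in control cells, 2.96). With 2 arrays this likeness is a likeness in 1 number.

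Genes of this family lie next to each other on the mouse chromosomes, in the RefSeq gene table of assembly GRCm38.p6. On chromosome 13 the order is Ecm2, Aspn, Omd, Ogn, and all 4 lie within the span of Cenpp, which encodes a centromere protein. All 4 were higher in shLrrfip1a, by 1.20, 0.48, 3.19 and 0.75, with Ecm2 below the filter. Of all genes on the array, 53.4% were higher by any amount. As Omd led to the choice of this family, nothing is read from this count. Cenpp itself differed by -0.24 (112 in shLrrfip1a and 135 in control cells). The next genes beyond Ogn were Nol8, for a nucleolar protein, at 0.23, and Iars, for an isoleucine tRNA ligase, at -0.22. On the other side of Cenpp, Ippk, an inositol phosphate kinase, differed by 0.23. By their brightest probe sets the 4 proteoglycan genes differed by more than these neighbours, but Aspn, like the neighbours, stayed under 1.5-fold. The other Aspn probe set above the filter, at 0.18, differed by less than these neighbours did.

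Dcn lies on chromosome 10 beside Lum, Kera and Epyc, of which keratocan and epiphycan are further proteins of the family. These 3 neighbours were dim on both arrays. Lum differed by 0.16, Kera by 0.03 (12.7 in shLrrfip1a and 12.1 in control cells) and Epyc by -0.05 (14.7 in shLrrfip1a and 15.8 in control cells), all 3 below the filter. On the other side of Dcn, Gm46240 had no probe set with that symbol, and Btg1, a growth inhibitor, differed by -0.35. On chromosome 1, Prelp (0.87) and Fmod (0.37) are adjacent, between Optc (37.2 in shLrrfip1a and 25.0 in control cells, 0.38, below the filter) and Btg2, a growth inhibitor related to Btg1 (292 in shLrrfip1a and 213 in control cells, 0.43). Atp2b4, a calcium pump beyond Optc, differed by -0.37. Bgn on chromosome X stands apart from the rest of the family, and its neighbours above the filter, Haus7 and Dusp9, differed by 0.11 and 0.24. Podn on chromosome 4 lies between Slc1a7 (0.24) and Scp2 (0.07).

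**Figure D4:**
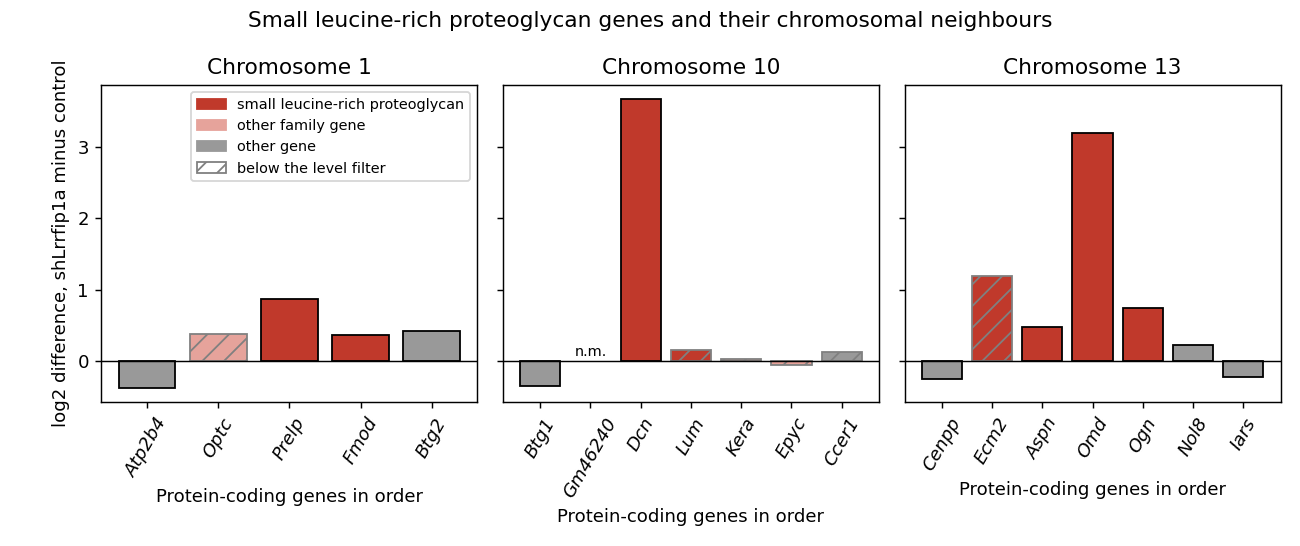
Log2 difference, shLrrfip1a minus control (y axis), of protein-coding genes in chromosomal order (x axis, not to scale) around the proteoglycan genes of chromosomes 1, 10 and 13; n.m. is a gene that was not measured and hatched bars lie below the level filter. On chromosome 13 all 4 proteoglycan genes are positive, where 53.4% of all genes on the array are. On chromosome 10 only Dcn stands out.

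The sequences before the 4 genes of chromosome 13 are shown because these genes lie side by side and all read higher. They are the RefSeq windows of GRCm38.p6 from 250 bases before to 50 bases after each gene's start, on the + strand, at chr13:49504560-49504859 for Ecm2, chr13:49544193-49544492 for Aspn, chr13:49582212-49582511 for Omd and chr13:49607765-49608064 for Ogn. Capitals mark matches on either strand to 5 motifs. The TATA box was searched as TATAAA. The E-box, the site of the myogenic bHLH factors, was searched as CANNTG. The GC box was searched as GGGCGG, and the AP-1 element as TGANTCA. The MCAT element, the site of TEAD factors, was searched as CATTCC.
Ecm2: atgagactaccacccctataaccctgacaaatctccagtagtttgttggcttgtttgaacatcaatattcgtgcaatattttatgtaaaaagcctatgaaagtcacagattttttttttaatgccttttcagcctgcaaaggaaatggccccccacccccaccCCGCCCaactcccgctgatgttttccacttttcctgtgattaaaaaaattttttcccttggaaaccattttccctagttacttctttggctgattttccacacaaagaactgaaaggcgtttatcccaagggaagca
Aspn: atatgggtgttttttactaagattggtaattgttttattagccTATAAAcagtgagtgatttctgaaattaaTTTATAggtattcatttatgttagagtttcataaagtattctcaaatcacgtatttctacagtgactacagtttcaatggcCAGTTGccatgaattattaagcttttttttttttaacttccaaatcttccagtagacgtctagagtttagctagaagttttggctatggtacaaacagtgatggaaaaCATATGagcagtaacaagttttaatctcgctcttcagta
Omd: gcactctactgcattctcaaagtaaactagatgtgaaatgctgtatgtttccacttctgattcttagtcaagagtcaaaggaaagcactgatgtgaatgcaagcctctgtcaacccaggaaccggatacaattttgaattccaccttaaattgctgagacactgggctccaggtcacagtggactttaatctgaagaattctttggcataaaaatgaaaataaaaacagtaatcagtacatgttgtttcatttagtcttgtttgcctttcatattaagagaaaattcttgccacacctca
Ogn: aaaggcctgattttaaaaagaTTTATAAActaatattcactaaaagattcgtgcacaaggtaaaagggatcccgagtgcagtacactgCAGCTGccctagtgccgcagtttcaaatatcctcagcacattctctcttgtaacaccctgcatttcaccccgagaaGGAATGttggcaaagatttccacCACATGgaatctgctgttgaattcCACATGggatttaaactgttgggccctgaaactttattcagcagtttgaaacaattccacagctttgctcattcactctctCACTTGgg
Omd held none of the 5 motifs in this window. Ecm2 held 1 GC box, Aspn held 2 TATA boxes and 2 E-boxes, and Ogn held 4 E-boxes, 1 MCAT element and 2 overlapping TATA box matches on opposite strands. Of 32851 mouse windows of this length, 72.3% held an E-box, 35.7% a GC box, 14.7% an MCAT element, 13.6% a TATA box and 7.81% an AP-1 element. No AP-1 match was found in any window of the 8 genes that had an entry. A match is a run of letters, not a shown binding site.

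The windows of these 4 genes were poor in G and C. The GC content was 37.7% for Omd, 42.3% for Ogn, 31.0% for Aspn and 41.0% for Ecm2, against a median of 52.7% over all windows. Only 6.63%, 14.9%, 1.28% and 12.1% of windows had a lower GC content than these. Prelp and Fmod were near the median at 55.3% and 51.0%. Bgn (63.7%) and Podn (63.0% and 77.0% for its 2 starts), the genes above the filter with the smallest differences, had the highest GC content. These 8 genes are too few and share neighbourhoods, so this is given as a description. Dcn and Lum had no entry.

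The enzymes that build the sulfated chains were examined as a list of 26 genes of chondroitin and dermatan sulfate synthesis, 24 of them above the filter. None of the 24 reached 2-fold, where 1.35% of all genes above the filter did in either direction. The median log2 difference was -0.03, and 0.13 with spike-in scaling. The largest differences were those of the sulfotransferases Chst7 (163 in shLrrfip1a and 92.3 in control cells, 0.72), Chst11 (262 in shLrrfip1a and 418 in control cells, -0.64) and Ust (143 in shLrrfip1a and 225 in control cells, -0.60). Chst11 differed by 0.05 on its other probe set, and Ust by -0.25. Of 7 keratan sulfate and protein sulfation genes above the filter, 1 was at least 2-fold higher, against 0.664% of all genes above it. It was Tpst1, a tyrosine sulfotransferase of the Golgi (516 in shLrrfip1a and 226 in control cells, 1.13). In the other direction B4galt1 differed most, at 441 in shLrrfip1a and 837 in control cells (-0.90). The list median was -0.03, and 0.13 with spike-in scaling.

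Of the collagens that these proteins bind or organise, 12 lay above the filter. Of these 12, 2 were at least 2-fold lower, where 0.69% of all genes above the filter were. None was at least 2-fold higher, where 0.664% were. Col5a3 read 195 in shLrrfip1a cells, against 540 in control cells (-1.40), and differed by 0.32 on a second probe set below the filter. Col11a1, a chain of a fibril-nucleating collagen, read 161 and 67.5 in shLrrfip1a cells, against 388 and 189 in control cells, on 2 probe sets (-1.19 and -1.29). Of the chains of types I and III collagen, named after their values were seen, Col1a1 read 1384 in shLrrfip1a and 1854 in control cells (-0.42), Col1a2 7380 in shLrrfip1a and 7540.0 in control cells (-0.03), and Col3a1 7579 in shLrrfip1a and 7324 in control cells (0.05). Of type VI collagen, also named after its values were seen, Col6a3 read 1206 in shLrrfip1a and 2318 in control cells (-0.93). Col6a1 read 2374 in shLrrfip1a and 1672 in control cells (0.50), and Col6a2 3542 in shLrrfip1a and 2112 in control cells (0.74). Col5a1 differed by -0.49, Col5a2 by -0.25, Col14a1 by -0.06 and Col12a1 by 0.57. The list median was -0.15, and 0.00 with spike-in scaling, so the list had no stable direction.

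None of 7 other matrix partners above the filter reached 2-fold, where 1.35% of all genes above it did (median -0.15, and 0.01 with spike-in scaling). Furthest from 0 in this list were the collagen cross-linking enzyme Lox (2451 in shLrrfip1a and 3593 in control cells, -0.55, and -0.95 on another probe set above the filter), the glycoprotein gene Tnc (-0.42) and Thbs1 (0.35), which encodes an activator of latent TGF-beta. Among 8 growth factors above the filter known to be bound by these proteins none reached 2-fold, where 1.35% of all genes above it did. Bmp4 read 810 in shLrrfip1a and 484 in control cells (0.72). Tgfb3 read 662 in shLrrfip1a and 448 in control cells (0.55), and Tgfb1 was dim at 69.2 in shLrrfip1a and 96.2 in control cells (-0.40). Their median was 0.01 on the deposited scale, 0.17 with spike-in scaling and -0.04 with median centring, so it had no stable direction.

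Of 13 receptors above the filter, 1 was at least 2-fold higher, against 0.664% of all genes above it. The list median was 0.17, with 0.33 after spike-in scaling and -0.01 with the 75th percentile filter, so its direction depended on the filter. The gene past 2-fold was the VEGF receptor Kdr, a reported receptor of decorin, at 118 in shLrrfip1a and 48.0 in control cells (1.07), so it lay below the filter level in the control. The gelatinase Mmp2 was the 1 of 7 proteases above the filter at least 2-fold higher, again against 0.664% of all genes above it. Its 2 probe sets read 4564 and 3745 in shLrrfip1a cells, against 2017 and 1739 in control cells (1.17 and 1.10). In the other direction Mmp3 differed most, at 112 in shLrrfip1a and 229 in control cells (-0.94). The protease list median was -0.07, and 0.09 with spike-in scaling. Of 6 measured further genes of the proteoglycan family, Chadl was the 1 above the filter (92.1 in shLrrfip1a and 62.7 in control cells, 0.46). The other 5 (Epyc, Kera, Nyx, Chad and Optc) lay below it.

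**Figure D5:**
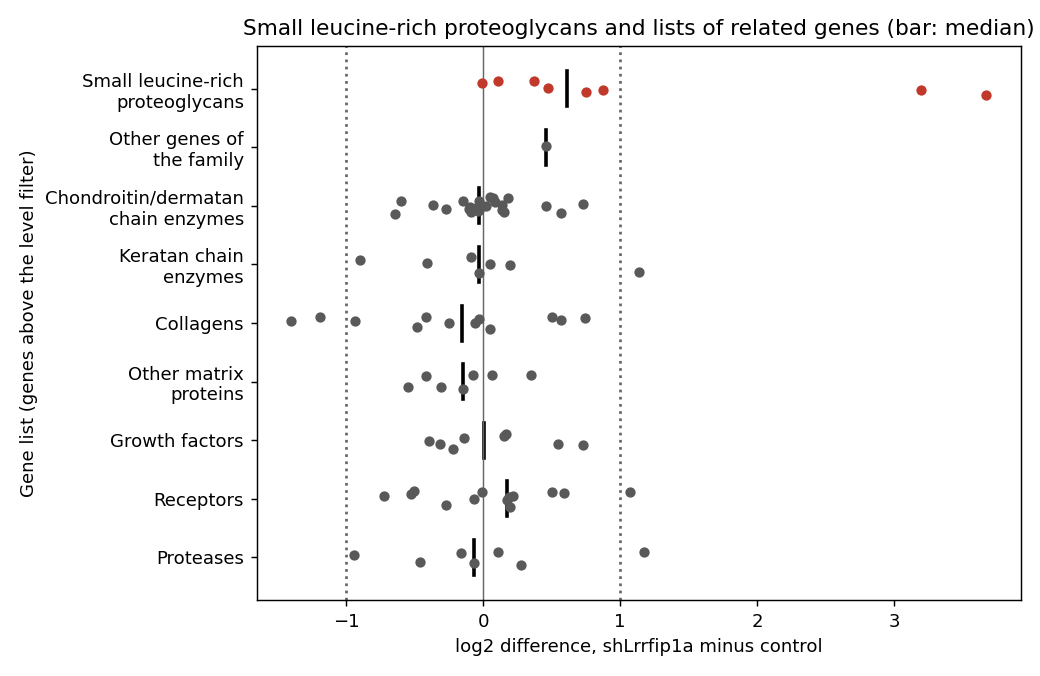
Log2 difference, shLrrfip1a minus control (x axis), of genes above the level filter in each list (rows), 1 point per gene, with a bar at the list median and dotted lines at 2-fold. The 8 small leucine-rich proteoglycan genes (top row) have a median of 0.61, and the medians of the 7 lists with several genes lie between -0.15 and 0.17.

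Since Dcn and several relatives are made by connective tissue cells, fibroblast markers were set beside them. Of 9 measured markers 8 lay above the filter, 2 of these higher in shLrrfip1a, where 50.7% of such genes were, and 6 lower. The summed intensities over the 9 were 14161 in shLrrfip1a and 15762 in control cells. Dpt, which encodes the decorin-binding protein dermatopontin, was the 1 marker past 2-fold, at 48.4 in shLrrfip1a and 197 in control cells (-1.73). Of all genes above the filter, 0.69% were at least 2-fold lower. Dpt lay below the filter level of 52.4 in shLrrfip1a. Of the others above the filter, Postn differed by -0.47, Col1a1 by -0.42, Pdgfra by -0.35, Mfap5 by -0.11 and Pi16 by -0.02. Col3a1 differed by 0.05 and Thy1 by 0.11, and no marker was at the deposited floor of 1. For Omd, 2 of 5 measured osteoblast markers lay above the filter, with summed intensities over the 5 of 244 in shLrrfip1a and 221 in control cells. Alpl differed by 0.32 and Phex by 0.43, both under 1.5-fold. Sp7, Ibsp and Dmp1 lay below the filter and differed by 0.18, -0.05 and -0.72. Dmp1, at 25.3 in shLrrfip1a and 52.1 in control cells, thus had the largest difference of the 5, and it was lower. The part of other cell types in the Dcn and Omd differences was not tested, and in RNA of whole cultures more cells of a type and more RNA per cell cannot be told apart.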

How the data were processed

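Total RNA of 1 shLrrfip1a and 1 control culture was measured on Affymetrix mouse arrays, from 6 ug of RNA per the labels' protocols. The authors deposited 1 linear intensity per probe set and array, with a floor of 1 and medians of 53.5 in shLrrfip1a and 51.4 in control. How probes were summarised, corrected and scaled, and which were detected, is not given in the sources used here. The number of arrays limits the precision.

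Of 45101 probe sets, 64 were controls, 34945 others had 1 gene symbol, 932 had several and 9211 had none. By gene identifier 34741 matched the RefSeq table of GRCm38.p6. Differences are log2(intensity + 16), shLrrfip1a minus control, which understates dim genes. Each gene was read by its brightest probe set, and 11448 of 18193 genes exceeded the probe set median. A difference of 1 (2-fold) was counted, and no test was run.

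The genes and lists were chosen with earlier results of these data known. The text names all 10 genes, Lrrfip1, chromosomal neighbours (2 on each side), the 2 genes nearest in difference, and list genes past 2-fold or else the 3 largest. Markers of cell types, further collagens, Mmp3 and B4galt1 were named outside this rule. The marker lists were muscle, myoblast, fibroblast, tendon, osteoblast, chondrocyte, adipocyte, smooth muscle, macrophage and endothelial. Alternatives were median centring, quantile and spike-in scaling, pseudocounts of 1 and 64, no filter or the 75th percentile, the mean over probe sets, thresholds of 1.5-fold and 3-fold, and leaving out Dcn and Omd. Python 3.11.15, numpy 2.4.6 and pandas 2.3.3 were used. The procedure was run on simulated data with a smaller spread than these arrays and the same added difference on all probe sets of a gene. That run checks the code and gives no error rate for these arrays.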

Additional observations from a re-analysis of the deposited data

How the results depend on the processing

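With 1 array per group no array could be left out. No paired analysis was possible because there was 1 array on each side. Dcn and Omd were at least 2-fold higher under every alternative run. Of the 10 genes, 9 kept a positive difference under the 6 scalings, pseudocounts and probe set rules. Podn was positive under 1 of them, spike-in scaling. A pseudocount cannot turn the sign of a probe set's difference. The mean over probe sets cannot change a gene with a single probe set (Omd, Lum and Podn). The 9 include Lum, from which no difference can be read. How many of all genes kept their sign was not counted, so nothing is read from this count. Dcn differed by 2.19 with the mean over its 2 probe sets, against 3.67. Omd differed by 3.47 and 2.60 with pseudocounts of 1 and 64, and Ecm2 by 1.84 and 0.59, and by 0.81 with the mean over probe sets. The number of these genes at least 2-fold higher was 2, with 3 after spike-in scaling (Prelp added), 3 without a filter (Ecm2 added) and 4 at 1.5-fold. Their median ranged from 0.42 without Dcn and Omd to 0.77 with spike-in scaling. Over all genes, 76 higher and 79 lower genes became 268 and 282 at 1.5-fold, 28 and 23 at 3-fold, 48 and 46 above the 75th percentile, 116 and 53 with spike-in scaling, and 52 and 44 with a pseudocount of 64. Of the lists, 1 collagen was at least 2-fold lower with the mean over probe sets, against 2. With a pseudocount of 64 the keratan and receptor lists had 0 genes at least 2-fold higher, as did the receptor list with the 75th percentile filter. With a pseudocount of 1, 1 protease was at least 2-fold lower, and without a filter the median of the other family genes was 0.061. The cause was not tested. A change of a difference or a median was counted as such when it was over 0.23, the robust SD of all gene differences, since no replicate spread exists. A change of a count was counted as such when it was more than 1.5-fold or went to or from 0. Dim genes (Lum, Ecm2, Podn and Omd in the control) have the least certain ratios.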

Other observations

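Many markers of other tissues that make small leucine-rich proteoglycans lay below the filter, and those above it differed in both directions. Of 5 tendon markers 3 lay above the filter. The tendon transcription factor Scx read 494 in shLrrfip1a and 432 in control cells (log2 difference 0.18), Mkx 120.1 in shLrrfip1a and 159 in control cells (-0.37), and Egr1 789 in shLrrfip1a and 1460.3 in control cells (-0.87), while Tnmd and Thbs4 were below the filter. Of 6 chondrocyte markers 2 lay above it, Sox9 (468 in shLrrfip1a and 390.0 in control cells, 0.25) and Col9a1 (67.6 in shLrrfip1a and 59.2 in control cells, 0.15), and Acan and Col2a1 did not. Of 5 adipocyte markers 0 lay above the filter.

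Of 5 smooth muscle markers all lay above the filter and none reached 2-fold, where 1.35% of all genes above it did. Their median was -0.16, and Acta2 differed by 0.26. Of 5 macrophage markers 2 lay above the filter, Csf1r at 0.00 and Adgre1 at 0.01. Of 4 endothelial markers Kdr was the 1 above it, and Pecam1, Cdh5 and Tek were below. Of 5 myoblast markers, Myf5 (82.8 in shLrrfip1a and 159 in control cells, -0.83), Cdh15 (-0.21) and Myod1 (894 in shLrrfip1a and 602 in control cells, 0.56) lay above the filter. Pax7 and Pax3 lay below it. Pax7, at 22.59 in shLrrfip1a and 70.35 in control cells (-1.16), had the largest difference of the 5. It was more than 2-fold lower, but with its mean below the filter it was not counted. Pax3 differed by 0.03.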
